A study of Mus musculus with 7 samples.

Results

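Dio3 and 6 further genes of thyroid hormone handling were followed in RNA from the cochlear epithelium, which lines the hearing organ, of mouse embryos at embryonic day 16. The 7 genes are the deiodinases Dio2 and Dio3, the nuclear receptors Thra and Thrb, the membrane transporters Slc16a10 and Slco1c1 and the binding protein Crym, out of 54532 genes in the deposited table. The set was chosen by measured values in these libraries, namely the low level of Dio3 in the knockout, and by the role of the hormone in cochlear maturation. The difference in Dio3 is therefore given as a description, with no test, and the 6 others were named by role with earlier results of these data known. The series asks what the loss of Brg1 does to the differentiation and patterning of the sensory epithelium. Smarca4 encodes Brg1, the motor subunit with which BAF complexes move nucleosomes.

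The knockout group held 4 libraries with the genotype Brg1 knockout and the control group 3 libraries with the genotype Control. All 7 were untreated cochlear epithelium of the same embryonic day. The sources used here name no Cre driver, deleted exons, strain or number of embryos per library. As no label states separate animals for the replicates, p-values cover the spread between these libraries alone, and that spread may be technical. The control titled replicate 3 carries the number 4 in its description and in the deposited tables.

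Thyroid hormone reaches the embryo and the tissue mainly as thyroxine, which has to cross the cell membrane through transporters. The deiodinase encoded by Dio2 converts it to the active hormone T3, and the deiodinase encoded by Dio3 inactivates both forms by removing an inner-ring iodine. T3 acts through the nuclear receptors encoded by Thra and Thrb, which bind DNA as partners of the retinoid X receptors. In the mouse cochlea, Dio3 is known to protect the immature organ from early exposure to the hormone, Dio2 to raise T3 around the onset of hearing, and Thrb to be needed for hearing.

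Both deiodinases carry selenocysteine in their active site, encoded by an in-frame TGA that elsewhere ends translation. The reading frames of Dio2 and Dio3 around this codon are shown because it encodes a residue of the active site. It also ties both genes to the selenoprotein synthesis genes described further on. The capitals mark the selenocysteine codon, with 10 codons on each side, 5′ to 3′ on the coding strand, read from GRCm38 with the GENCODE M21 annotation. The Dio2 stretch is at chr12:90729793-90729855 on the reverse strand and its capitals are codon 130. The Dio3 stretch is at chr12:110279709-110279771 on the forward strand and its capitals are codon 170.
Dio2: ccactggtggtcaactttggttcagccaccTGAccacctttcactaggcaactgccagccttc
Dio3: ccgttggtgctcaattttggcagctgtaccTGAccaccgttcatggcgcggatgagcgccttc
Of the 63 bases compared, 41 were the same in both genes, or 65.1%. The annotation marks 2 selenocysteine codons in Dio2, of which the one shown lies in the stretch that resembles Dio3.

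Smarca4, the gene labelled as knocked out, had levels of 281, 239, 228 and 250 CPM (counts relative to the size of the library, scaled with TMM factors) in the knockout libraries, in the order of replicates 1 to 4. In the control libraries, replicates 1 to 3, the levels were 372, 356 and 376 CPM. Every knockout library was below every control library, and the log2 fold change, knockout minus control, was -0.56 ± 0.09 (SE; adjusted p = 0.00338, edgeR's quasi-likelihood test with Benjamini-Hochberg adjustment over all genes). Library totals lay between 16098269 and 18872132 counts. The fractional parts of the deposited counts divided the libraries into a set of 5 (replicates 1, 2 and 3 of the knockout with replicates 1 and 2 of the control) and a set of 2 (knockout replicate 4 and control replicate 3), which no label names. Results were therefore also computed within the set of 5, since the set of 2, with 1 library per group, cannot be tested.

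Markers of the labelled tissue were detected in every library, and so were markers of other cells. The summed level of 12 epithelial identity markers ran from 1542 to 1839 CPM in knockout and from 1255 to 1487 CPM in control, with 6 of 12 called higher. That of 10 hair cell markers averaged 350 ± 19.7 CPM over the knockout (SD, n = 4) against 348 ± 6.67 CPM over the control libraries (SD, n = 3). Within this list 2 of 10 were called higher (Gfi1 and Ccer2) and 0 lower, with a median log2 fold change of 0.49. The like sums therefore do not mean that each marker was unchanged. The sum of 21 neuron markers was between 1003 and 1362 CPM in knockout and between 2428 and 2781 CPM in control, or 45.7% of the control mean, with 14 of 21 called lower, none higher and none at 0. For 13 markers of Schwann and satellite glia the sums were 750 to 1018 CPM against 1518 to 1701 CPM, with 4 called lower. Over all genes tested, 1.94% were called higher and 4.87% lower. In libraries of whole tissue, fewer cells of a type and less RNA per cell cannot be told apart.

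Dio3 (ENSMUSG00000075707, chr12:110279068-110281097, mm10, forward strand) had levels of 0.982, 0.214, 0.863 and 0.475 CPM in knockout libraries 1 to 4. Its levels in control libraries 1 to 3 were 1.05, 5.11 and 3.16 CPM. The groups did not overlap, but control replicate 1 lay just above the highest knockout library, while control replicates 2 and 3 were well above all others. The groups also did not overlap in 20.7% of all genes tested (3597 of 17341), and nothing is read from this for Dio3, which was chosen on this contrast. The knockout mean of Dio3 was 0.634 ± 0.354 CPM (SD, n = 4) against a control mean of 3.11 ± 2.03 CPM (SD, n = 3), so that the knockout was at 20.4% of control. On the log2 scale the fitted difference was -2.28 ± 0.56 (SE).

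Few reads lie behind these levels of Dio3. The deposited estimated counts were 18.08, 4.08, 14.08 and 7.92 in knockout and 20.08, 92.08 and 57.92 in control. The 95% Poisson interval, which covers counting error only, was 10.7 to 28.4 counts in knockout replicate 1 and 12.2 to 30.9 counts in control replicate 1. Those intervals overlap almost entirely. The intervals began at 74.2 counts in control replicate 2 and at 44.0 counts in control replicate 3. All were computed on the rounded deposited values. They are no test of Dio3, which was chosen on this contrast. The log2 difference in Dio3 was -1.74 without control replicate 2, -2.71 without control replicate 1 and -2.16 in the set of 5 libraries. The size of the difference thus varied with the control library left out. As Dio3 was chosen on this contrast and its groups do not overlap, the sign of these values carries no information.

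**Figure D1:**
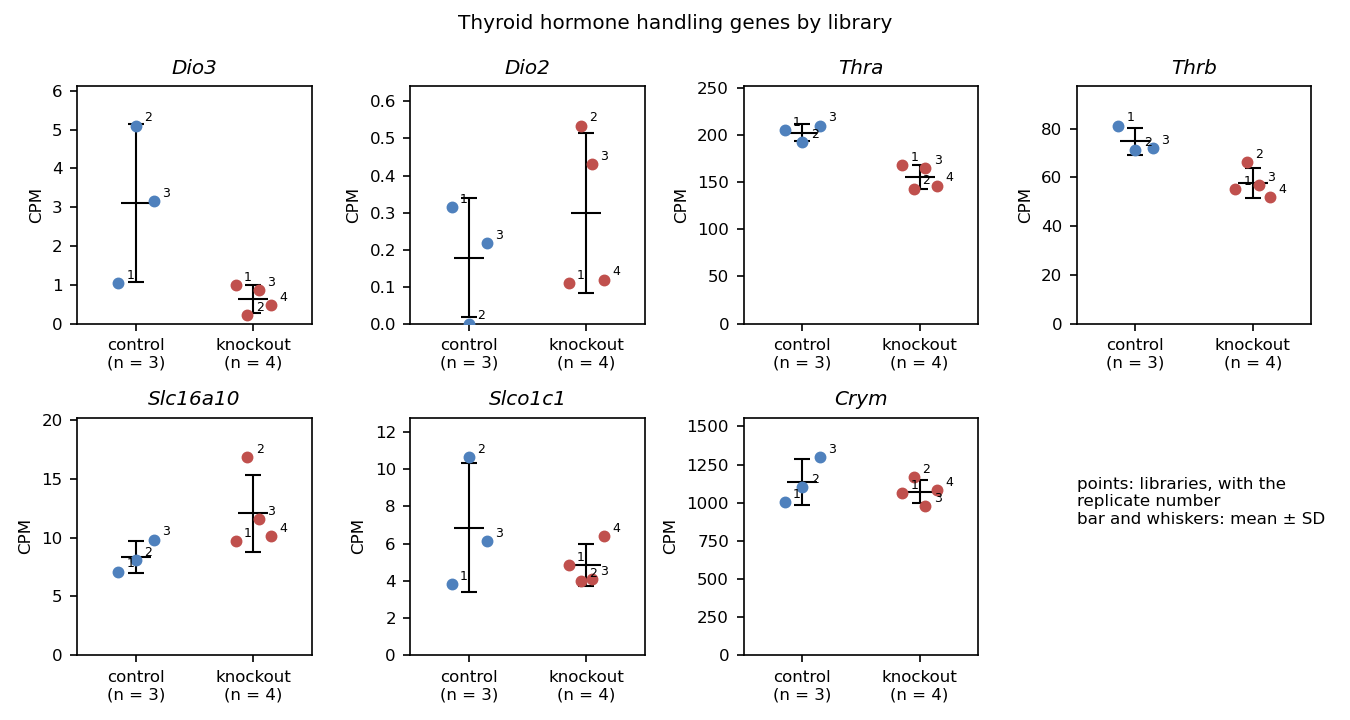
Level of each of the 7 genes in CPM (linear axis from 0) for the 3 control and 4 knockout libraries. Points are libraries with their replicate number, and the bar with whiskers is the mean ± SD. Dio3, Thra and Thrb show no overlap between groups, with Dio3 of control replicate 1 (1.05 CPM) close to knockout replicate 1 (0.982 CPM).

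Dio2 (ENSMUSG00000007682, chr12:90724552-90738438, mm10, reverse strand), the activating deiodinase, was close to the limit of detection. Its deposited estimated counts were 1.67, 9.67, 6.67 and 2.33 in knockout libraries 1 to 4 and 5.67, 0 and 4.33 in control libraries 1 to 3. The groups overlapped, and several libraries of both groups lay near the floor of 3 counts, which corresponds to between 0.157 and 0.185 CPM per library. The gene did not pass the filter on low counts and no fold change is given. Dio1, the third deiodinase, which is best known from liver and kidney, was at 0 in every library. For a count of 0 the 95% Poisson interval reaches 3.69 counts per library.

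Thra (ENSMUSG00000058756, chr11:98740638-98769006, mm10, forward strand) encodes the widely expressed thyroid hormone receptor alpha. Knockout libraries 1 to 4 held 168, 143, 165 and 147 CPM of Thra and control libraries 1 to 3 held 206, 193 and 210 CPM. Every knockout library was below every control library. The knockout mean was 155.9 ± 12.6 CPM (SD, n = 4) against a control mean of 203 ± 9.08 CPM (SD, n = 3), or 76.8% of control. Thra fell by 0.38 ± 0.08 on the log2 scale (SE; 95% interval -0.56 to -0.20; edgeR's quasi-likelihood test, adjusted p = 0.0179).

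Thrb (ENSMUSG00000021779, chr14:17660261-18038090, mm10, forward strand) encodes receptor beta. Thrb stood at 55.3, 66.1, 56.9 and 52.0 CPM in knockout libraries 1 to 4, and control libraries 1 to 3 held 81.2, 71.3 and 71.9 CPM. Again the groups did not overlap, with knockout replicate 2 the closest to the controls. Its knockout mean was 57.6 ± 6.06 CPM (SD, n = 4) against a control mean of 74.8 ± 5.58 CPM (SD, n = 3), or 77.0% of control. Thrb fell by 0.38 ± 0.10 on the log2 scale (SE; 95% interval -0.59 to -0.17; edgeR's quasi-likelihood test, adjusted p = 0.0387).

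Thra and Thrb were the 2 called genes among the 6 members other than Dio3, of which 5 were tested. Over all genes tested, 4.87% were called lower (845 of 17341), 1.94% higher and 6.82% in either direction at an adjusted p below 0.05. A count of 2 among 5 is small, and the genes were named with earlier results in view. Neither call held in every alternative. In the set of 5 libraries, where 3.74% of genes were called, neither passed: Thra was at -0.33 (edgeR's quasi-likelihood test, adjusted p = 0.107) and Thrb at -0.36 (adjusted p = 0.133). Thra also missed the threshold without control replicate 1, control replicate 3 or knockout replicate 2 (edgeR adjusted p = 0.0712, 0.0690 and 0.0590), and Thrb missed it without any single library except knockout replicate 2 (edgeR adjusted p from 0.0618 to 0.148). Thrb was also not called with library totals in place of TMM scaling (edgeR adjusted p = 0.0587) or by limma on FPKM (adjusted p = 0.0724). The fitted difference kept its direction in all 14 alternatives, between -0.44 and -0.33 for Thra and between -0.45 and -0.32 for Thrb.

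The balance between the receptors showed no difference between the groups beyond the spread of the libraries. The ratio of Thra to Thrb in FPKM, which allows for gene length, averaged 4.39 ± 0.62 over the knockout libraries (SD, n = 4) and 4.37 ± 0.32 over the controls (SD, n = 3). On the log2 scale the count ratio differed by -0.0029 between groups (exact two-sided permutation p = 1, over 35 assignments of the libraries, whose smallest possible p is 0.0286). Leaving out 1 library moved this difference between -0.06 and 0.10, so its sign carries no information. The value of 0.10 came without knockout replicate 2, whose FPKM ratio of 3.48 was the lowest of all libraries. A p of this size does not show that the ratios are equal.

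Gene-level counts do not separate the products of these loci. Thra yields a hormone-binding receptor and a splice form that does not bind the hormone, and Thrb yields receptors with different amino ends. The annotated span of Thra overlaps Nr1d1, a circadian nuclear receptor gene on the opposite strand, by 1075 bases. The sources used here do not say if counting used the strand, so reads there cannot be assigned to Thra or Nr1d1. Nr1d1 itself had a log2 fold change of -0.06 ± 0.20 (SE; edgeR adjusted p = 0.900), and its highest value in any library was 85.92 counts, against a mean of 2729 counts of Thra in the knockout libraries. On the opposite strand Thrb overlaps the antisense gene Gm48321, the pseudogene Gm48320 and the noncoding RNA gene Gm24140, of which none exceeded 6.75 counts.

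Receptor levels fell in libraries in which neuron and glia markers were lower too. The neuron sum stood at 45.7% and the glia sum at 57.8% of control, where Thra stood at 76.8% and Thrb at 77.0%. Markers of supporting and prosensory cells were at 80.5% of control, with 3 of 12 called lower against 4.87% of all genes tested. Those of the greater epithelial ridge and tectorial membrane were at 78.8%, with 1 of 9 tested called higher and 2 lower. Over all genes tested, 1.94% were called higher. Fabp7 stands in both the glia and the supporting cell lists. Other sums were not lower: epithelial identity was at 125%, hair cells at 101%, periotic mesenchyme at 111%, cartilage at 125%, macrophages at 133% and endothelium at 106%. Melanocyte markers were at 88.9% and erythroid markers at 83.2%. The part of the cell makeup in the lower receptor and Dio3 levels was not tested.

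**Figure D2:**
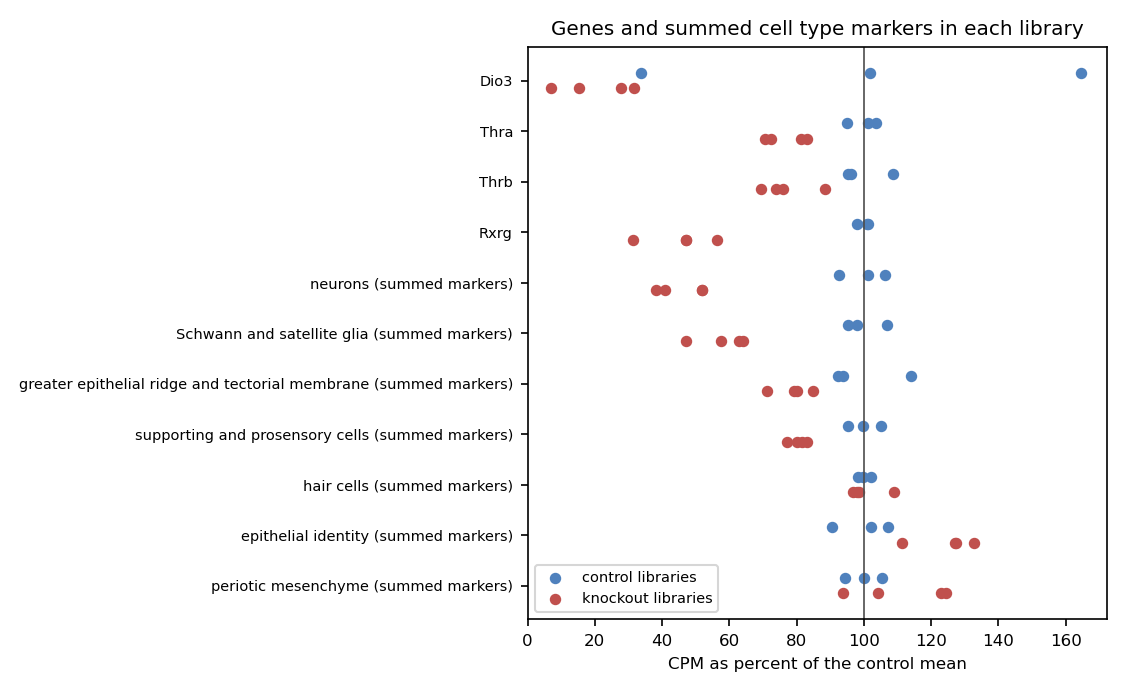
Level of Dio3, Thra, Thrb and Rxrg and the summed level of 7 marker lists in each library, as a percent of the control mean (linear axis). Blue points are control and red points knockout libraries, and the line is at 100. Neuron markers lie between 38.3% and 52.0% in knockout, lower than Thra (70.7% to 83.0%) and Thrb (69.5% to 88.4%).

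The transporters among the members did not pass the test. Slc16a10 (ENSMUSG00000019838, chr10:40033532-40142258, mm10, reverse strand) encodes MCT10, a carrier of thyroid hormones and aromatic amino acids. Knockout libraries 1 to 4 held 9.71, 16.8, 11.6 and 10.1 CPM of Slc16a10, and control libraries 1 to 3 held 7.11, 8.05 and 9.82 CPM. The groups overlapped at the edge, with knockout replicate 2 the highest and control replicate 3 just above knockout replicate 1. Slc16a10 had a log2 fold change of 0.54 ± 0.21 (SE; edgeR's quasi-likelihood test, adjusted p = 0.165), and this became 0.33 without knockout replicate 2.

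Slco1c1 (ENSMUSG00000030235, chr6:141524368-141570177, mm10, forward strand) encodes OATP1C1, a carrier of thyroxine. Its levels were 4.86, 3.96, 4.07 and 6.42 CPM in knockout and 3.82, 10.7 and 6.11 CPM in control. Control replicate 2 stood above all others, and control replicate 1 was the lowest of the 7. The log2 fold change was -0.51 ± 0.32 (SE; edgeR adjusted p = 0.400) and was -0.06 without control replicate 2. That library also held the highest Dio3.

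Crym (ENSMUSG00000030905, chr7:120186380-120202111, mm10, reverse strand) encodes mu-crystallin, which binds T3 in the cytosol. It was by far the most abundant member, at 1062, 1165, 980 and 1080 CPM in knockout and 1004, 1104 and 1299 CPM in control. The groups overlapped, and control replicate 3 was the highest library. Crym had a log2 fold change of -0.08 ± 0.11 (SE; edgeR adjusted p = 0.733), and at 0.02 both without control replicate 3 and in the set of 5 libraries.

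Per length, the members spanned a wide range of levels. Mean FPKM over the 7 libraries, with the lowest and highest library, was 315 for Crym (281 to 368) and 37.1 for Thra (30.2 to 44.2). Thrb followed at 8.54 (6.67 to 10.9), Slc16a10 at 1.38 (0.957 to 2.24) and Slco1c1 at 1.07 (0.729 to 2.002). Dio3 was at 0.811 FPKM (0.103 to 2.45) and Dio2 at 0.0413 FPKM (0 to 0.0900). Neighbours in this order were apart in every library for 4 of the 6 pairs, and the ranges of Slc16a10 and Slco1c1 and of Slco1c1 and Dio3 overlapped. In control libraries alone Dio3 was at 1.49 ± 0.97 FPKM (SD, n = 3) and Dio2 at 0.030 ± 0.027 FPKM (SD, n = 3). The inactivating deiodinase was thus the higher of the pair by FPKM in each control library at this age. In knockout replicate 2 the FPKM were 0.103 for Dio3 and 0.0900 for Dio2, from 4.08 and 9.67 counts. The order in that library rests on the length scaling of few counts.

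Dio3 lies at the end of the imprinted Dlk1-Dio3 locus, where Dlk1, Rtl1 and Dio3 are known to be expressed mainly from the paternal and Meg3, Rian and Mirg from the maternal chromosome. Dlk1, which encodes a membrane protein related to Notch ligands and begins -826 kb from the start of Dio3, was at 33.8, 16.6, 21.3 and 31.1 CPM in knockout and 15.4, 12.8 and 9.88 CPM in control. Every knockout library was above every control library, so Dlk1 differed in the direction opposite to that of Dio3. It rose by a log2 fold change of 1.02 ± 0.26 (SE; edgeR adjusted p = 0.0449). In the set of 5 libraries Dlk1 was at 0.76 (edgeR adjusted p = 0.253), and it missed the threshold without any single library except knockout replicate 2 (edgeR adjusted p from 0.0549 to 0.165).

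The other tested genes of the locus did not pass. Between Dlk1 and Dio3, Meg3 had a log2 fold change of 0.19 ± 0.17 (SE), Rtl1 one of 0.13, Rian one of -0.09 and Mirg one of 0.20. Meg3, Rtl1 and Mirg were below 0 in the set of 5 libraries, at -0.07, -0.19 and -0.34. The flanking genes Begain and Ppp2r5c were at -0.05 and -0.0040. Allele-specific expression cannot be read from these gene-level counts.

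**Figure D3:**
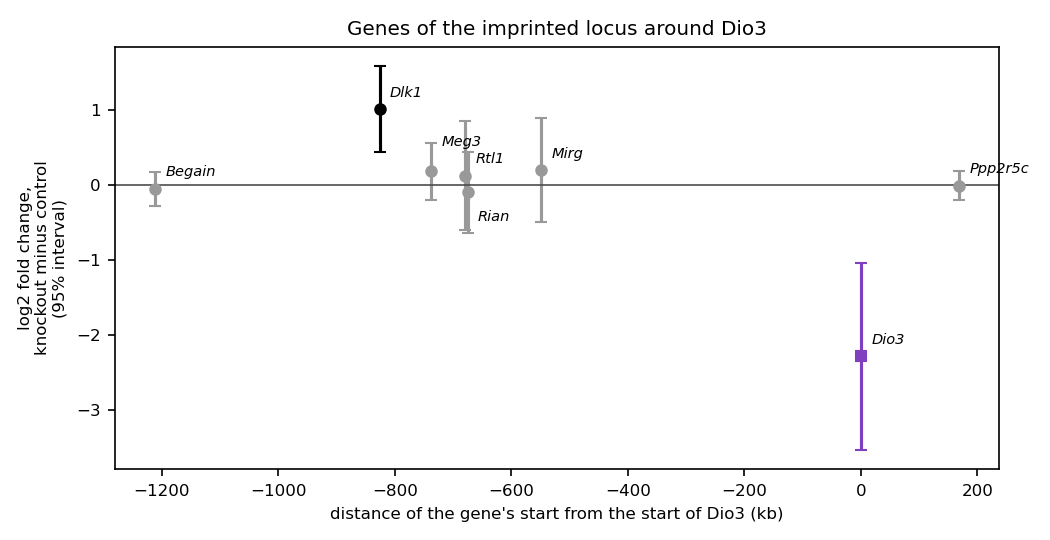
Log2 fold change, knockout minus control, with its 95% interval for tested genes of the imprinted locus, plotted by distance from the start of Dio3 in kb. Black marks an adjusted p below 0.05, grey the genes that did not pass, and the purple square Dio3, for which no test is read. Dio3 was chosen on this contrast, so the distance of its interval from 0 is not a test either. Dlk1 is at 1.02 and Dio3 at -2.28, and the genes between them lie from -0.09 to 0.20.

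Dio3os, a noncoding RNA gene on the opposite strand next to Dio3, does not overlap it in the annotation. Its deposited estimated counts were 3.67, 5.67, 4.67 and 5.33 in knockout and 5.67, 12.67 and 19.33 in control. Control replicates 2 and 3 were the highest, as they were for Dio3, and control replicate 1 equalled knockout replicate 2. It did not pass the filter on low counts and was not tested. The part of the 895 bases between the pair that lies next to Dio3 is shown because the 2 genes lie on either side of this stretch, at chr12:110278980-110279067 on the forward strand of GRCm38.p6, from the RefSeq promoter table, and capitals mark the GGGCGG motif on either strand.
Dio3: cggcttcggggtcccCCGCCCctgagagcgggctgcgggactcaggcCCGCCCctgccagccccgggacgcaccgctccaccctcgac
The motif occurs 2 times in these 88 bases, without overlap.

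In the RefSeq promoter windows, 250 bases before to 50 after each gene's start, entries were found for 5 of the 7 members, all but Thra and Crym. The window of Dio3 held GGGCGG 4 times on either strand, a motif present in 35.7% of 32851 windows, and TATAAA, present in 13.6%. It held 25 CpG dinucleotides, more than 81.6% of the windows. The window of Dio2 held TATAAA and TGACGTCA, the latter present in 1.79% of windows, with 3 CpG. AGGTCA, one half-site of thyroid hormone response elements, was found in 1 window of Thrb and is present in 16.3% of all windows. These are matches of letters on both strands and not evidence of binding.

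Genes around the 7 members were read from 9 lists by role, with 71 genes beside the members. Of these, 54 were tested and 7 were called, 4 higher and 3 lower, or 13.0% against 6.82% of all genes. Their median log2 fold change was -0.01, against 0.02 over all genes. Group ranges did not overlap in 10 of the 54, near the share over all genes of 20.7%. The lists were chosen with earlier results known, and this count is a description. It was 4 in the set of 5 libraries, 4 without knockout replicate 4, control replicate 1 or control replicate 3, and 3 without control replicate 2.

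Among receptor partners, Rxrg differed the most. Rxrg encodes retinoid X receptor gamma, which pairs with thyroid hormone receptors and others on DNA. Knockout libraries 1 to 4 held 28.8, 15.99, 24.1 and 24.2 CPM of Rxrg and control libraries 1 to 3 held 50.1, 51.8 and 51.7 CPM. The controls were nearly identical and all knockout libraries far below them. Rxrg fell by 1.14 ± 0.16 on the log2 scale (SE; edgeR adjusted p = 0.00203), to 45.5% of control, and passed in all 14 alternatives. The neuron marker sum stood at a like 45.7% of control, and its part in the level of Rxrg was not tested. Rxra was lower in every knockout library without passing (-0.21 ± 0.08 SE; edgeR adjusted p = 0.153), and Rxrb was at -0.03.

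Of 6 other tested transporters, 1 was called, where 6.82% of all genes tested were called in either direction. Slco1a4, an organic anion carrier that takes thyroid hormones among other substrates, was at 4.47, 3.16, 3.33 and 2.85 CPM in knockout and 0.575, 1.22 and 1.801 CPM in control. No knockout library was as low as any control. Slco1a4 rose by 1.53 ± 0.35 on the log2 scale (SE; edgeR adjusted p = 0.0242). This call was lost without knockout replicate 1, control replicate 1 or control replicate 2 (edgeR adjusted p = 0.0529, 0.0742 and 0.0670). It was also lost with the replicate block (edgeR adjusted p = 0.0647). Few counts lie behind Slco1a4, from 47.75 to 82.25 in the knockout and from 11.25 to 32.75 in the control libraries. The gene belongs to a family of close paralogs, so its counts are uncertain where reads could be split. The amino acid carriers Slc7a5, Slc7a8 and Slc3a2, whose complexes also take the hormone, were at -0.17, 0.04 and -0.12. Among binding proteins, the plasma and choroid plexus carrier Ttr was at -0.39 ± 0.16 (SE; edgeR adjusted p = 0.181).

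Among genes known from other tissues to respond to thyroid hormone, 2 of 13 tested were called higher and 2 lower. Over all genes tested, 1.94% were called higher and 4.87% lower. The list does not record the direction in which each gene responds, so these counts say nothing of hormone action. Nrgn, a calmodulin-binding protein gene induced by the hormone in rodent brain, was at 7.64, 9.95, 9.49 and 12.9 CPM in knockout and 4.86, 4.44 and 2.13 CPM in control. It rose by 1.39 ± 0.28 on the log2 scale (SE; edgeR adjusted p = 0.0129), with no overlap between groups. Sema7a, a membrane-anchored semaphorin gene, was at 17.7, 19.3, 22.5 and 18.1 CPM in knockout and 37.3, 27.6 and 30.7 CPM in control. It fell by 0.72 ± 0.13 on the log2 scale (SE; edgeR adjusted p = 0.00675). Nrgn and Sema7a passed in all 14 alternatives.

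Mbp, the myelin basic protein gene, which also stands in the glia list, fell by 0.54 ± 0.14 on the log2 scale (SE; edgeR adjusted p = 0.0410). Dbp, a circadian transcription factor gene that overlaps Sphk2 on the opposite strand, rose by 0.46 ± 0.12 (SE; edgeR adjusted p = 0.0399). Neither passed in the set of 5 libraries, where the edgeR adjusted p was 0.196 for Mbp and 0.144 for Dbp. With 1 library left out, Mbp passed only without knockout replicate 1 or control replicate 1 (edgeR adjusted p from 0.0206 to 0.132 over the 7 fits), and Dbp only without knockout replicate 1 (from 0.0261 to 0.145). Klf9, a direct target of the receptors in many tissues, did not pass (0.24 ± 0.20 SE; edgeR adjusted p = 0.539). The same held for Hr at -0.14 ± 0.22 (SE) and for Kcnj10, the potassium channel gene of the stria vascularis, at -0.54 ± 0.19 (SE; edgeR adjusted p = 0.114).

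The receptor coregulators moved little. By edgeR 0 of 13 were called, with 0 at an unadjusted p below 0.05 and 0 called by DESeq2. Of these, Tbl1x, a corepressor subunit gene, was at 0.14 ± 0.07 (SE). Selenoprotein synthesis, on which the TGA codons of Dio2 and Dio3 depend, likewise had 0 of 8 genes called by edgeR, 0 at an unadjusted p below 0.05 and 0 by DESeq2. Its smallest p-values belonged to the seryl-tRNA synthetase gene Sars at -0.18 ± 0.09 (SE) and the selenocysteine elongation factor gene Eefsec at 0.13 ± 0.09 (SE). Of the genes of hormone synthesis in the thyroid, 4 of 12 were tested and 0 were called by edgeR, at an unadjusted p below 0.05 or by DESeq2. Among them were Slc26a4, the pendrin gene of the cochlear and thyroid epithelia, at -0.27 ± 0.22 (SE), and Slc5a5, the iodide carrier gene, at -0.09 ± 0.42 (SE).

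**Figure D4:**
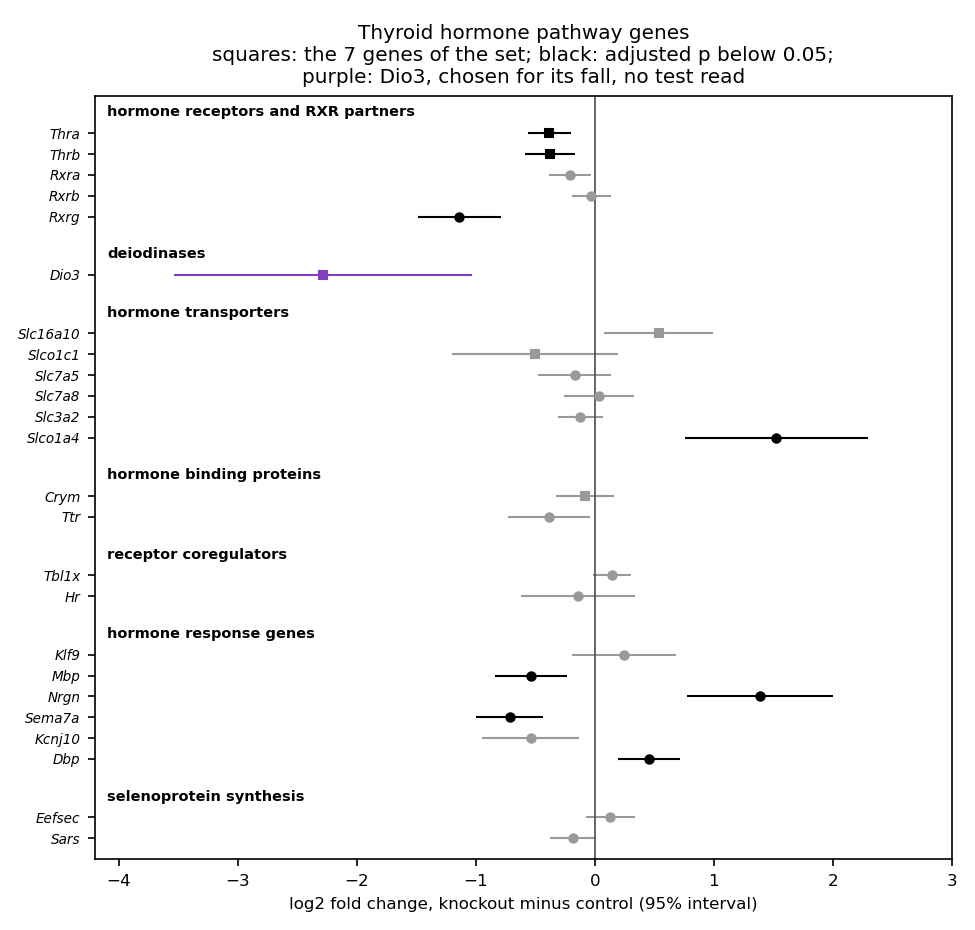
Log2 fold change, knockout minus control, with its 95% interval for the tested genes of 7 lists by role that are named in the text. Squares are members, circles other genes, black an adjusted p below 0.05, grey above it, and purple Dio3, for which no test is read. Dio3 was chosen on this contrast, so the distance of its interval from 0 is not a test either. Thra, Thrb, Rxrg, Mbp and Sema7a lie below 0 with their intervals, and Slco1a4, Nrgn and Dbp above 0. Rxra, Ttr and Kcnj10 also lie below 0 and Slc16a10 above 0 with their intervals, without passing the adjusted threshold. The estimates of Tbl1x, Hr, Sars and Eefsec lie between -0.18 and 0.14, with intervals that include 0.

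The genes whose level followed that of Dio3 most closely were taken as a description of the 7 libraries. Among 13864 protein-coding genes whose mean reached 1 CPM, the highest Pearson r of log2 CPM with Dio3 was 0.988, for the LIM-domain protein gene Csrp1. After centring in each group r was 0.982 for Csrp1, over the same 7 libraries that chose it. Next came Morn4 (0.981), Gm13889 (0.981), Fbxw2 (0.975), Snu13 (0.971), Mbp (0.971), Cdk16 (0.965), the kinase gene Akt1 (0.965), Prss12 (0.962) and Ctnnbip1 (0.961). Their centred r lay between 0.905 and 0.954. The highest of many values over 7 libraries is high by choice, and the libraries share depth and preparation. For Crym the closest were Mmgt2 (0.962), Cyp2u1 (0.947), Serpinf1 (0.942), Map1s (0.932) and St3gal3 (0.929).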

How the data were processed

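The deposited tables held estimated counts and FPKM per gene for 7 libraries, made by the authors. Per the submitters' processing notes, the build was mm10, and the tools listed, with no role or settings, are featureCounts 1.5.0-p3, HISAT2 2.0.5, fastp, DESeq2 1.20.0 and CASAVA 1.8. The labels' protocols name the RNeasy Micro and NEBNext Ultra RNA kits. The deposited counts are fractional: in 21368 genes above 0 in every library, 100% of values were within 0.001 of a whole number of twelfths (1 in 12). Libraries shared their fractions in a set of 5 and a set of 2, read from the values alone, the form that whole counts take when each gene is shifted by 1 amount in each set. Such a step changes fold changes most in genes of few counts, Dio3 and Dio2 included, and its size is not stated. The deposited FPKM were used as they stand.

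Counts were rounded and tested in edgeR 4.0.16 (R 4.3.3; TMM, filterByExpr, robust quasi-likelihood F-test, 17341 genes, Benjamini-Hochberg adjusted p below 0.05, called here). The biological coefficient of variation was 14.9% with 5 residual degrees of freedom, which do not subtract what such constants would have used. Standard errors were derived from the F statistic. Totals of 16098269 to 18872132 counts put the floor of 3 counts at 0.157 to 0.185 CPM. Poisson intervals and floors cover counting error only, and the 95% intervals of fold changes come from the edgeR fit and include the spread between libraries. Alternatives were DESeq2 1.42.0, library totals without TMM, no filter, each library left out, the set of 5 alone, the set as a term, a replicate block, and limma 3.58.1 on log2(FPKM + 0.1). The procedure was tested on simulated data, with changes planted only in genes above a mean of 5 CPM and no shift between the sets. That test does not cover genes of few counts such as Dio3 and Slco1a4. Date-like names of 27 genes were restored from their gene IDs.

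Named genes were the members, Smarca4, Dio3os and overlapping genes, called genes of the pathway lists (the 2 smallest p where none was called), tested genes of the imprinted locus, and the genes most like Dio3 (10) and Crym (5). Rxra, Rxrb, Nr1d1, Dio1, Klf9, Hr, Kcnj10, Slc7a5, Slc7a8 and Slc3a2 were named after their values were seen or for their role. The members and lists were chosen with earlier results of these data known. Some genes of the lists enter the counts but are not reported here by name.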

Additional observations from a re-analysis of the deposited data

Results flagged for a closer look

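In 27 measures of the 4 knockout libraries, 2 held a library far from the other 3. Begain, at the far edge of the imprinted locus, was at 16.9 CPM in knockout replicate 2 and at 18.4 to 18.6 CPM in the others. Mirg, within the locus, was at 15.6 CPM in knockout replicate 4 and at 8.08 to 9.31 CPM in the others. Chance alone gives such a flag in about 1 of 20 groups.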

How the results depend on the processing

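Of 27 named genes, 20 kept the sign of their log2 fold change in every alternative run for them. Dio3 is among the 20, but its sign is no support, as it was chosen on this contrast. Over all genes 1182 were called, against 657 in the set of 5 libraries, 779 with the replicate block, 1714 by DESeq2 and 556 to 1195 with 1 library left out. Of the members other than Dio3, 2 were called, against 1 without TMM, 1 by limma, 0 to 1 with 1 library left out, and 0 in the set of 5 and 0 with the replicate block by edgeR, where 3 were at an unadjusted p below 0.05 each time. Of the pathway genes 7 were called, against 4 in the set of 5, 4 with the set as a term, 4 with the replicate block and 3 to 5 with 1 library left out. The fits of the set of 5, of the block and with 1 library left out hold fewer libraries. The replicate block used title numbers 1 to 3. Deviations of libraries with the same title number had correlations of -0.097, -0.171 and 0.052. Those of differently numbered libraries ran from -0.180 to 0.233. So few correlations cannot show if the libraries are paired. The control titled replicate 3 is numbered 4 in the deposited tables, and its match with knockout replicate 4 was not computed. With the block the ratio of Thra to Thrb differed by -0.022 (log2). In the set of 5 this ratio was at 0.032, and the log2 fold change was 0.021 for Crym, -0.073 for Meg3, -0.19 for Rtl1, -0.34 for Mirg and 0.10 for Ppp2r5c. Ppp2r5c was also at 0.0088 without TMM, 0.0021 with the set as a term and 0.025 with the block. Leaving out 1 library gave ranges from -0.059 to 0.10 for the ratio, -0.17 to 0.021 for Crym, -0.082 to 0.069 for Ppp2r5c, -0.28 to 0.10 for Rian, -0.34 to 0.32 for Slc5a5, -0.056 to 0.50 for Rtl1 and -0.090 to 0.44 for Mirg. The cause of these changes was not tested. Counts under 100 in every library limit genes such as Dio3, Dio2, Dio3os and Slco1a4. Nrgn was under 100 counts in each control library.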
